A study of Aspergillus fumigatus with 12 samples.

Results

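The transcriptome of mycelium grown with the azo dye Ponceau 2R and sinapic acid together (P2R+SA, 3 libraries) was compared with that of mycelium on basic medium (CK, 3 libraries). The genes described are those with at least 1 FPKM (fragments scaled to gene length and to the size of the library) in 3 or more of these 6 libraries, 9117 of the 10276 in the table. The remaining 1159 genes were not tested, and 144 of them were at 0 in all 6 libraries. The series also holds 3 libraries with the dye alone (P2R) and 3 with sinapic acid alone (SA), on the same basic medium. The strain is X-13 in all groups, and the sampling time in the series design is 48 h. The title gives the species as Trametes hirsuta, while the organism field of the samples gives Aspergillus fumigatus. The study asks how sinapic acid enhances decolorization of the dye.

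Trametes hirsuta is a white-rot fungus. White-rot fungi secrete laccases, peroxidases and other oxidative enzymes that attack lignin, and the low specificity of these enzymes lets them also break down azo dyes. Sinapic acid is a phenolic acid of plants that resembles the building blocks of lignin, and phenolics of this kind can serve as redox mediators for laccase. None of these enzymes can be picked out here, because the deposited tables give IDs without names or products. None of the 10276 IDs (0) matched an identifier among the 10086 genes of an Aspergillus fumigatus Af293 table (assembly ASM265v1). Genes are therefore described by level, by rank and by coding length, and 4 of them by ID.

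Libraries held 35919382 to 39408714 fragments in genes, recovered from the FPKM values as whole numbers, so depth differed little between groups. No label states that the 3 libraries of a group are separate cultures. The p-values therefore rest on the spread among these libraries, part of which may be technical. The column headers of the single-library files carry the number 36 for CK and P2R and 48 for SA and P2R+SA, whereas the series design states 48 h for every group. The P2R+SA headers also carry a separate 4 that no source explains. If 36 and 48 are sampling times, the effect of the compounds and that of time cannot be told apart in this comparison. Nor can they be for SA with CK, or where P2R is set beside SA or P2R+SA. P2R and CK carry the same number, as do SA and P2R+SA. In bulk RNA, fewer cells of one kind and less RNA per cell cannot be told apart either.

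P2R+SA replicate 1 stood apart from the rest of its group. Its median gene differed from P2R+SA replicates 2 and 3 by 0.312 and 0.328 log2 units, and from the 3 CK libraries by 0.267 to 0.270. P2R+SA replicates 2 and 3 differed from each other by 0.128 log2 units in the median gene, and from CK by 0.429 to 0.464. The CK libraries differed from each other by 0.105 to 0.127. By rank, replicate 1 remained closer to its own group, with Spearman correlations of 0.9746 and 0.9768 against 0.9531 to 0.9571 with CK.

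A small number of genes held much of the transcriptome in both media. As a share of summed FPKM, the 10 most abundant genes of each library took 12.6% ± 0.268 in CK and 14.4% ± 0.794 in P2R+SA (SD, n = 3 each). The 500 most abundant took 59.5% ± 0.578 and 61.5% ± 0.321 (SD, n = 3 each). In CK, 293 ± 10 genes were enough to hold 50% of the sum, against 263 ± 8.08 in P2R+SA (SD, n = 3 each). The groups did not overlap in any of these shares, and each two-sided exact permutation test gave p = 0.1, the smallest that 3 libraries against 3 allow, so none can pass 0.05. In the top 2 genes the groups overlapped, with 6.41% ± 0.29 in CK and 6.7% ± 0.391 in P2R+SA (SD, n = 3 each; two-sided exact permutation p = 0.3). Such shares do not depend on how libraries are scaled to each other.

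**Figure D1:**
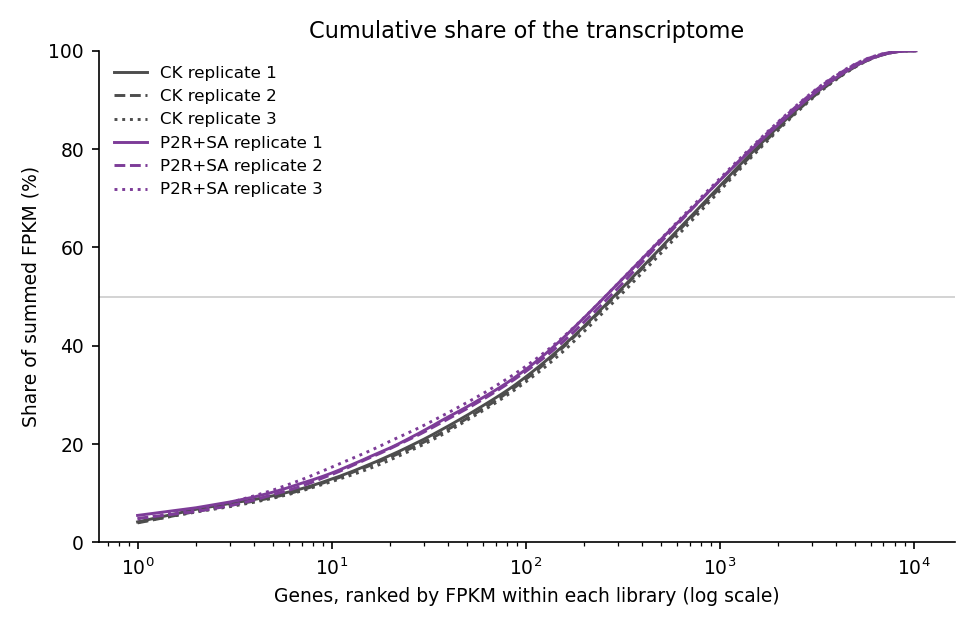
Share of summed FPKM (y axis, %) held by the most abundant genes, ranked within each library (x axis, log scale), 1 line per library for the 3 CK and 3 P2R+SA libraries. The groups overlap in the top 2 genes, with 6.7% in P2R+SA and 6.41% in CK, and the P2R+SA lines lie slightly above at the top 10, 50, 100 and 500, with 14.4% against 12.6% in the top 10 genes and 61.5% against 59.5% in the top 500 (group means).

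One short gene led every group. With a coding length of 348 bp, it was the most abundant gene by mean FPKM in all 4 groups. It stood at 39323, 37302 and 37851 FPKM in CK replicates 1, 2 and 3, and at 52971, 45364 and 44976 FPKM in P2R+SA. The 3 P2R+SA libraries all lay above the 3 CK libraries, and the gene's share of summed FPKM was 4.08% in CK and 5.05% in P2R+SA on average. The difference did not pass the test across all genes (limma log2 fold change 0.32, SE 0.15, adjusted p = 0.115). Over the alternatives its adjusted p ran from 0.0141 to 1.0, and it passed under median-of-ratios scaling, array quality weights, limma-voom and without the intensity trend. The value of 1.0 comes from quantile normalization, which gives the leading gene of every library the same value.

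The gene that followed in CK lost that place. A00619, of 384 bp, stood at 24102, 21987 and 19347 FPKM in the CK libraries and at 5217, 4098 and 4190 FPKM in P2R+SA. The lowest CK library was more than 3 times the highest P2R+SA library. Its mean was 4.85-fold lower with both compounds (limma log2 fold change -2.28, SE 0.15, adjusted p = 3.05e-06), and its rank went from 2 to 18. A00619 alone accounted for 10% of all the share of FPKM that genes lost between CK and P2R+SA, 1.85 percentage points out of 18.5.

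A pair of short genes rose in rank. A00307, of 483 bp, stood at 5877, 7003 and 4215 FPKM in CK and at 11411, 12900 and 19029 FPKM in P2R+SA, and moved from rank 9 to rank 2. Its mean rose by a factor of 2.54 (limma log2 fold change 1.34, SE 0.25, adjusted p = 0.00176). A00631, of 471 bp, stood at 4984, 5438 and 3861 FPKM in CK and at 9906, 10350 and 12845 FPKM in P2R+SA, and moved from rank 13 to rank 4. Its mean rose by a factor of 2.32 (limma log2 fold change 1.22, SE 0.19, adjusted p = 0.000666). In A00307 and A00631 alike, CK replicate 3 was the lowest and P2R+SA replicate 3 the highest of the 6 libraries. Groups that do not overlap were a condition for naming a gene by ID.

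**Figure D2:**
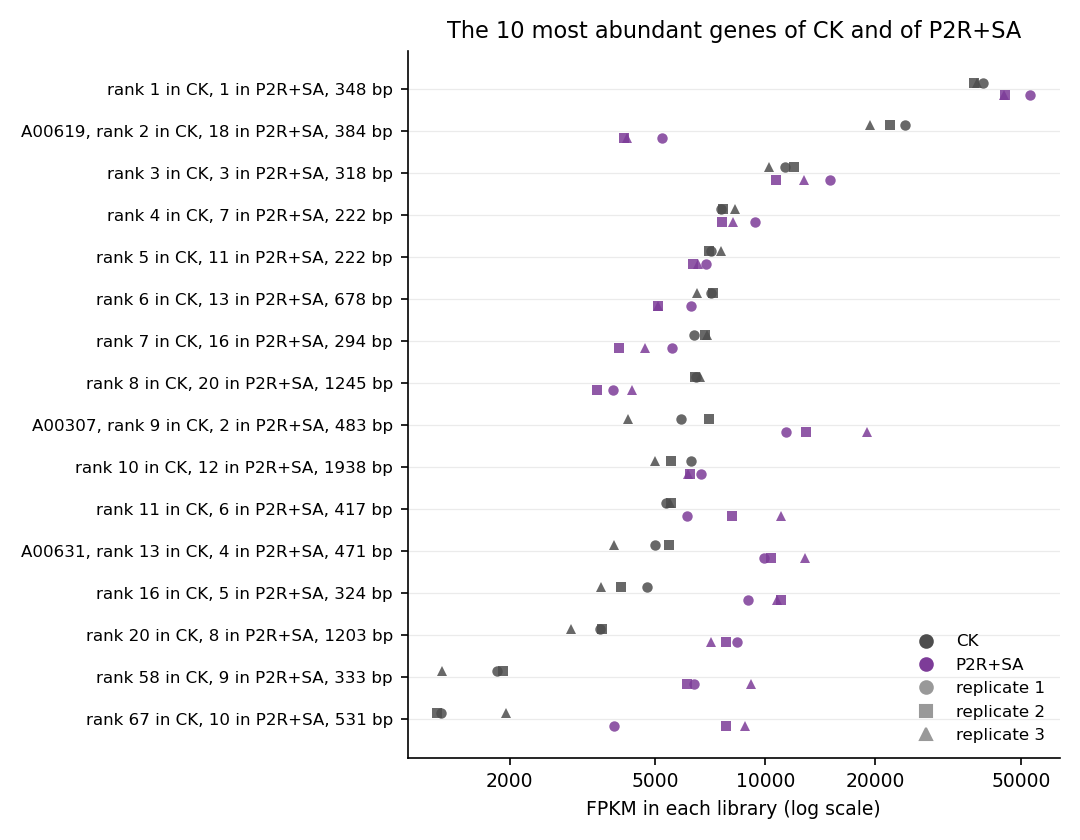
FPKM in each of the 6 libraries (x axis, log scale) for the genes among the 10 most abundant of CK or of P2R+SA, labelled by rank and coding length, with grey points for CK, purple for P2R+SA and a marker shape per replicate. The 348 bp gene leads both groups, A00619 drops from 21812 to 4502 FPKM in the mean, and genes ranked 58 and 67 in CK reach ranks 9 and 10 in P2R+SA.

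Of the 10 most abundant genes of CK and of P2R+SA, 4 were shared. They were the leading 348 bp gene, A00307, and genes of 318 and 222 bp. The 318 bp gene held rank 3 in both, with 11316, 11947 and 10261 FPKM in CK and 15012, 10680 and 12776 FPKM in P2R+SA. Its groups overlapped and it did not pass (limma log2 fold change 0.19, SE 0.16, adjusted p = 0.375). The 222 bp gene also overlapped, with 7562 to 8286 FPKM in CK and 7629 to 9362 FPKM in P2R+SA (limma log2 fold change 0.09, SE 0.20, adjusted p = 0.732). Both differences fell below 0 under quantile normalization and array quality weights, to -0.05 and -0.42 at the lowest.

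Other genes entered the P2R+SA top 10 from lower down. A gene of 324 bp went from 4758, 4036 and 3557 FPKM in CK to 8968, 11033 and 10738 FPKM in P2R+SA, and from rank 16 to rank 5 (limma log2 fold change 1.32, SE 0.24, adjusted p = 0.00161). A gene of 1203 bp went from 3523, 3577 and 2944 to 8376, 7813 and 7092 FPKM, and from rank 20 to rank 8 (1.21, SE 0.15, limma adjusted p = 0.000134). Both were 2.3-fold to 2.5-fold higher in the mean, like A00307 and A00631.

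The longest climbs ended at ranks 9 and 10. A gene of 333 bp rose from rank 58, with 1851, 1915 and 1305 FPKM in CK, to 6391, 6106 and 9120 FPKM in P2R+SA (limma log2 fold change 2.09, SE 0.25, adjusted p = 9.65e-05). A gene of 531 bp rose from rank 67, with 1299, 1268 and 1955 FPKM, to 3857, 7794 and 8790 FPKM (2.12, SE 0.28, limma adjusted p = 0.000208). In the 531 bp gene, P2R+SA replicate 1 held less than either of the others in its group, yet lay above all CK libraries. The sixth place in P2R+SA went to a gene of 417 bp with 6112, 8092 and 11037 FPKM, against 5346 to 5512 FPKM in CK, and it did not pass (0.58, SE 0.28, limma adjusted p = 0.117). It passed with array quality weights and without SA replicate 1 or P2R+SA replicate 1, and its adjusted p ran from 0.00264 to 0.382 over the alternatives.

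In all, 6 of the P2R+SA top 10 were called higher and 0 lower, while 1 of the CK top 10 was called higher and 3 lower. Lists chosen by the level in one group lean towards that group, so these directions are partly set by the choice. Ranked by the mean of all 6 libraries, 3 of the 10 were higher and 1 lower, and among the 100 most abundant 22 were higher and 25 lower. That is 40.0% and 47.0% called, against 40.4% of all tested genes. The 10 genes most abundant in P2R+SA held 13.7%, 13.8% and 15.3% of summed FPKM in P2R+SA replicates 1, 2 and 3, and 9.11%, 9.11% and 8.61% in the CK libraries. The 10 most abundant in CK held 12.9%, 12.6% and 12.2% there and 12.8%, 11.4% and 12.3% in P2R+SA. The CK list as a whole thus differed little between groups, although A00619 is one of its members.

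Most of the dominant genes by FPKM were short. Of the P2R+SA top 10, 9 had coding lengths under 700 bp, as had 8 of the CK top 10, against a median of 1353 bp in all tested genes. Counted in fragments, without scaling to length, the 348 bp gene still led CK and P2R+SA, with 1.33% and 1.66% of all fragments. The next place then went to a gene of 1938 bp in both, with 1.09% and 1.23%. Its FPKM overlapped between groups (6264, 5523 and 5010 in CK; 6680, 6212 and 6133 in P2R+SA), and it did not pass (limma log2 fold change 0.18, SE 0.13, adjusted p = 0.285). The top 10 by fragments took 7.67% ± 0.231 of all fragments in CK and 8.57% ± 0.236 in P2R+SA (SD, n = 3 each; exact permutation p = 0.1, the smallest possible). On this scale A00619 went from rank 3 to rank 51, and A00307 from rank 22 to rank 7.

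Between any CK and any P2R+SA library, 14.8% to 21.7% of summed FPKM would have to be moved from some genes to others to turn one profile into the other. Between CK libraries this amount was 3.94% to 5.09%. Between P2R+SA replicates 2 and 3 it was 5.13%, and between replicate 1 and these 11.2% and 12.2%. All pairs of CK and P2R+SA libraries thus differed by more than any pair within a group. The lower values, 14.8% to 15.2%, were those with P2R+SA replicate 1, and 20.9% to 21.7% were reached without it. Between the group means the moved share was 18.5%. Over all genes, called or not, the 10 with the largest gains took 29.6% of it and the 100 largest 59.4%. The 10 largest losses made up 21.8% and the 100 largest 46.5%. The largest gain, 5.26% of all gain, was that of the 348 bp gene, which did not pass the test.

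Across all tested genes, 3681 of 9117 (40.4%) passed the test, limma on log2(FPKM + 1) with a Benjamini-Hochberg adjusted p below 0.05. Of these, 1407 (15.4%) were higher and 2274 (24.9%) lower in P2R+SA. The median size was 0.77 log2 units among the higher and -0.68 among the lower genes. By at least 1 log2 unit, 444 rose and 580 fell. By at least 2 units, 85 rose and 138 fell, and by at least 4 units 7 rose and 19 fell. Libraries of the groups did not overlap in 5004 tested genes (54.9%), among them 3547 of the 3681 called. Among the tested genes, 57 reached 1 FPKM in all P2R+SA and no CK library, and 68 in all CK and no P2R+SA library. These entered the test only through the group where they are high, and 47 and 62 of them were called.

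The excess of falls depended on how libraries were scaled to each other. Over all tested genes the median log2 fold change was -0.117. Scaling by median of ratios brought it to -0.005, with 1875 genes higher and 1796 lower. Quantile normalization brought it to -0.011, with 1855 higher and 1933 lower. Among changes of at least 1 log2 unit the balance turned under these settings, to 559 higher against 478 lower and to 537 against 486. At 2 log2 units or more falls stayed ahead, with 122 against 99 and 123 against 100. Leaving out 1 P2R+SA library left 4734 calls for replicate 1, 2422 for replicate 2 and 2396 for replicate 3. With array quality weights it was 6606.

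**Figure D3:**
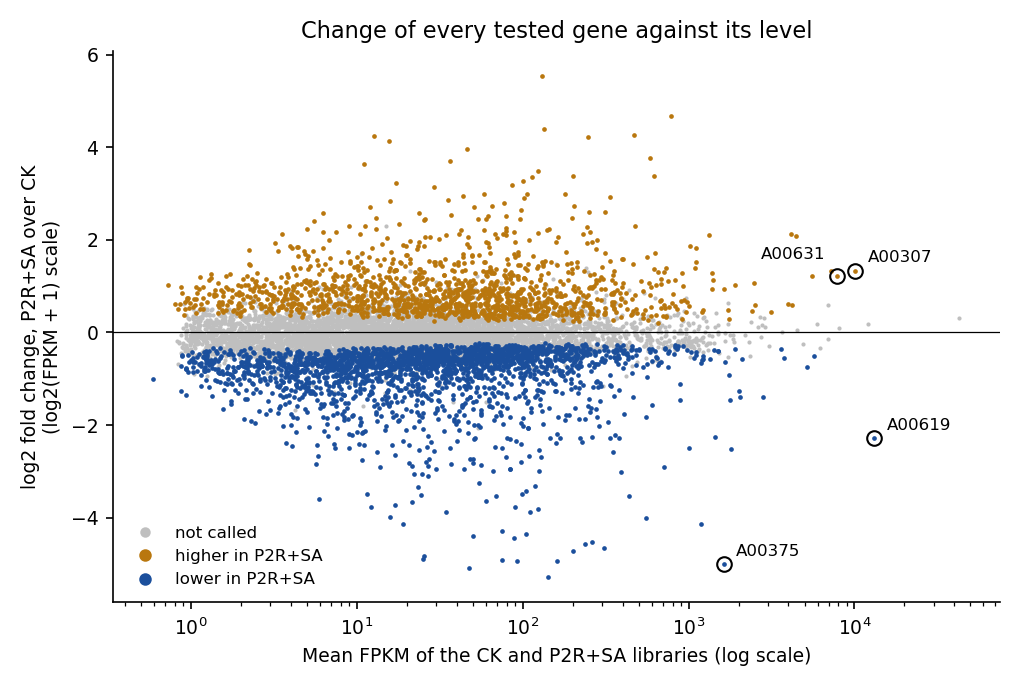
Log2 fold change of each tested gene, P2R+SA over CK (y axis, log2(FPKM + 1) scale), against its mean FPKM over the 6 libraries (x axis, log scale), with genes called higher in orange, lower in blue and others in grey. The circled genes hold the largest gains (A00307, A00631) and losses (A00619, A00375) of mean FPKM among called genes, and the grey point furthest right is the 348 bp gene that leads both groups.

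Changes were found at every level of expression. Of the genes with a mean under 3 FPKM over the 6 libraries, 30.1% were called, and of those from 100 to 300 FPKM 51.2%. Above 1000 FPKM, 57 of 138 genes (41.3%) were called, 27 higher and 30 lower. Changes of at least 1 log2 unit were present among these 138 as well, with 15 rises and 10 falls. The pseudocount compresses changes of low genes, and its part in the lower share among them was not tested.

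Among abundant genes, the deepest loss belonged to A00375. This gene of 936 bp stood at 3320, 2809 and 3349 FPKM in CK and at 148, 88.6 and 68.7 FPKM in P2R+SA. All P2R+SA libraries were far below all CK libraries, and the mean was 31.1-fold lower (limma log2 fold change -5.01, SE 0.37, adjusted p = 3.89e-06). A separate gene, also of 936 bp, followed the same course. It stood at 2378, 2293 and 2009 FPKM in CK and at 242, 116 and 68.6 FPKM in P2R+SA, 15.7-fold lower (-4.15, SE 0.41, limma adjusted p = 2.97e-05). Whether these genes are near-identical copies that share reads was not tested.

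Further losses of abundant genes were smaller or varied more. A gene of 318 bp, distinct from the rank 3 gene, went from 3647, 2757 and 2746 FPKM in CK to 866, 454 and 376 FPKM in P2R+SA (limma log2 fold change -2.51, SE 0.27, adjusted p = 5.43e-05). A gene of 426 bp went from 4138, 4013 and 4015 to 1562, 1548 and 1534 FPKM (-1.39, SE 0.10, limma adjusted p = 4.54e-06), with little spread in either group. Of the 10 largest losses, chosen among called genes whose groups do not overlap, 9 were called under all 23 alternatives. The exception, a gene of 294 bp with 6389 to 6913 FPKM in CK and 3983 to 5569 FPKM in P2R+SA, was close to the threshold (-0.51, SE 0.19, limma adjusted p = 0.0461) and lost its call under 11 of them, with an adjusted p of up to 0.176. These were the unfiltered fit, median-of-ratios scaling, the replicate block, and leaving out any 1 CK or P2R library or P2R+SA replicate 2 or 3.

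Of the 10 largest gains of mean FPKM, chosen among called genes whose groups do not overlap, 8 were called under all 23 alternatives. The others, of 618 and 411 bp, rose by 1.54-fold and 1.51-fold in the mean and lost their calls without single libraries. For the 618 bp gene (limma log2 fold change 0.61, SE 0.16, adjusted p = 0.0109) this was P2R+SA replicate 3, with an adjusted p of 0.0508. For the 411 bp gene (0.58, SE 0.17, limma adjusted p = 0.0165) it was CK replicate 2 or P2R+SA replicate 2, with an adjusted p of up to 0.0767.

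In relative terms the strongest rises took genes from low or moderate levels to high ones. Among called genes whose mean reached 5 FPKM in CK or P2R+SA, the 10 largest rises ran from 3.71 to 5.54 log2 units. In all 10 the groups did not overlap, as in 3547 of all 3681 called genes and 54.9% of tested genes. The second largest, in a gene of 606 bp, went from 47.5, 62.9 and 59.6 FPKM in CK to 1040, 1840 and 1630 FPKM in P2R+SA, 26.5-fold in the mean (limma log2 fold change 4.67, SE 0.32, adjusted p = 3.19e-06). A gene of 2220 bp went from 41.9, 49.4 and 43.5 to 761, 1050 and 868 FPKM, 19.9-fold higher (4.27, SE 0.40, limma adjusted p = 2.26e-05). A gene of 330 bp went from 77.1, 77.1 and 83.5 to 1220, 998 and 1080 FPKM, 13.9-fold higher (3.77, SE 0.26, limma adjusted p = 3.19e-06).

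Other strong rises began below 1 FPKM in every CK library. A gene of 1086 bp stood at 0.344, 0.126 and 0.28 FPKM in CK and at 11.5, 33.1 and 30.5 FPKM in P2R+SA. The ratio of means was 100, while its log2 fold change on the log2(FPKM + 1) scale was 4.25 (SE 0.52, limma adjusted p = 0.00012). A gene of 1680 bp stood at 0.556, 0.96 and 0.604 FPKM in CK and at 18.6, 39.3 and 33.2 FPKM in P2R+SA, 43.0-fold higher in the mean (4.14, SE 0.31, limma adjusted p = 4.77e-06). In both, P2R+SA replicate 1 was the lowest of its group. Genes under 0.5 FPKM in every CK library and at least 1 FPKM in every P2R+SA library numbered 8, and the reverse pattern was found in 6.

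The 10 largest falls ran from -4.65 to -5.29 log2 units, and all were from levels between 49.0 and 3160 FPKM in the CK mean. The largest, in a gene of 1914 bp, went from 275, 267 and 290 FPKM in CK to 13.9, 3.84 and 3.99 FPKM in P2R+SA, 38.3-fold lower in the mean (limma log2 fold change -5.29, SE 0.55, adjusted p = 4.1e-05). A gene of 987 bp went from 89.3, 76.9 and 113 to 2.07, 1.84 and 1.39 FPKM, 52.7-fold lower (-5.08, SE 0.42, limma adjusted p = 8.64e-06). Genes of 1776 and 330 bp, whose IDs carry consecutive numbers, had the same log2 fold change of -4.93 (SE 0.36 and 0.25, limma adjusted p = 3.58e-06 and 4.66e-07). The gene of 1776 bp went from 189, 181 and 165 FPKM to 7.92, 3.68 and 3.9, and that of 330 bp from 329, 324 and 291 to 12.4, 7.8 and 8.45. All 10 rises and all 10 falls, chosen among called genes, were called under each of the 23 alternatives, which refit the same data.

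P2R+SA replicate 1 lay nearest to CK in most called genes. It was the lowest P2R+SA library in 920 of the 1407 genes called higher (65.4%) and the highest in 1926 of the 2274 called lower (84.7%). The median called-higher gene lay 0.60 log2 units above the CK mean in replicate 1, against 0.84 in replicates 2 and 3. The median called-lower gene lay at -0.41 in replicate 1, -0.80 in replicate 2 and -0.83 in replicate 3. Over all tested genes these medians were -0.01, -0.18 and -0.17. Without replicate 1, 1644 genes were higher and 3090 lower.

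**Figure D4:**
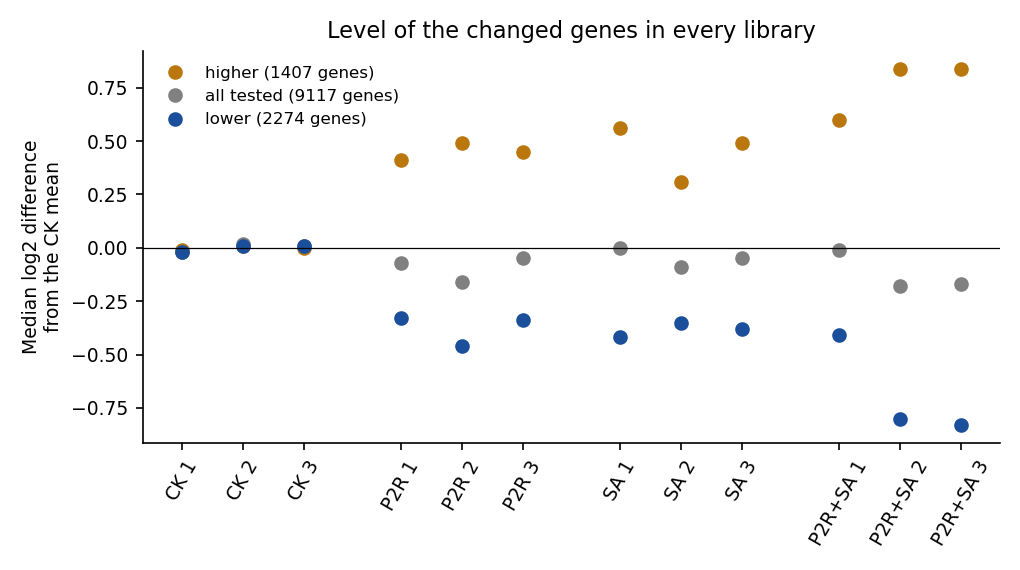
Median log2 difference from the CK mean (y axis) in each of the 12 libraries (x axis), for the 1407 genes called higher in P2R+SA against CK (orange), the 2274 called lower (blue) and all 9117 tested genes (grey). The genes were chosen by the P2R+SA and CK libraries; P2R+SA replicate 1 lies at 0.60 and -0.41, nearer to CK than replicates 2 and 3.

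By mean, the groups with a single compound lay between CK and P2R+SA for the 4 genes named by ID. This did not hold for all genes with large gains or losses. These comparisons all use the same CK libraries, so their values are only set side by side. All of these genes were chosen for large differences between CK and P2R+SA, which favours single-compound means that lie between. A00619 had a mean of 12781 ± 1065 FPKM with the dye alone and 9098 ± 1193 FPKM with sinapic acid alone, between 21812 ± 2383 in CK and 4502 ± 621 in P2R+SA (SD, n = 3 each). A00375 had 738 ± 96.0 FPKM with the dye and 686 ± 339 FPKM with sinapic acid, between 3159 ± 303 and 102 ± 41.2 (SD, n = 3 each). A00307 had 7942 ± 674 FPKM with the dye and 8581 ± 2224 FPKM with sinapic acid, between 5698 ± 1403 and 14447 ± 4037 (SD, n = 3 each). A00631 had 6828 ± 402 FPKM with the dye and 6172 ± 1574 FPKM with sinapic acid, between 4761 ± 812 and 11034 ± 1584 (SD, n = 3 each). Single libraries overlapped with CK in A00307 and A00631. SA replicate 2 stood at 6263 FPKM in A00307, below CK replicate 2 at 7003. In A00631 it stood at 4792 FPKM, below CK replicates 1 and 2 at 4984 and 5438.

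Among the 10 largest gains, both single-compound means lay between CK and P2R+SA in 6 genes, and among the 10 largest losses in 5. A single-compound mean lay beyond that of P2R+SA in 3 of the gains and 3 of the losses. It lay on the other side of CK, away from P2R+SA, in 1 of the gains and 3 of the losses, and a gene can be in both counts. The 324 bp gene that took rank 5 in P2R+SA had 10941 ± 2497 FPKM with the dye alone, against 10246 ± 1117 with both compounds (SD, n = 3 each). With sinapic acid alone it had 4240 ± 1322 FPKM, near the 4117 ± 605 of CK (SD, n = 3 each). The 333 bp gene at rank 9 in P2R+SA had 8737 ± 3214 FPKM with sinapic acid alone, against 7206 ± 1664 with both and 3925 ± 86.4 with the dye (SD, n = 3 each). Among the losses, the 318 bp gene that was lower in P2R+SA had 268 ± 61.2 FPKM with sinapic acid alone, against 565 ± 264 with both and 2558 ± 292 with the dye (SD, n = 3 each). A gene of 1245 bp, rank 8 in CK, had 2705 ± 262 FPKM with the dye alone, against 3875 ± 429 with both and 6410 ± 1592 with sinapic acid (SD, n = 3 each). Differences between a single compound and both were not tested here.

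Of all tested genes, 28.9% passed with the dye alone and 16.8% with sinapic acid alone, each against CK. A00619 and A00375 passed with either. Their log2 fold changes were -0.77 and -2.10 with the dye (limma adjusted p = 0.00477 and 0.00235) and -1.26 and -2.35 with sinapic acid (0.000271 and 0.00132). A00307 and A00631 passed with neither alone, at 0.51 and 0.53 with the dye (limma adjusted p = 0.144 and 0.058) and 0.59 and 0.36 with sinapic acid (0.127 and 0.223). With the dye, A00619 lost its call under quantile normalization (limma adjusted p = 0.585). A00631 gained one under 6 alternatives (limma adjusted p from 0.005), among them leaving out SA replicate 1 or 2. A00307 gained one with the dye under array quality weights (limma adjusted p = 0.0393) and with sinapic acid without SA replicate 2 (0.0422). Whether the change with both compounds departed from the sum of the single changes was tested by the interaction, which passed for none of the 4 (log2 interaction 0.24 for A00307, 0.33 for A00631, -0.25 for A00619 and -0.56 for A00375; limma adjusted p from 0.616 to 0.781). The standard errors of these interactions were 0.22 to 0.52 log2 units. Departures of that size would not pass, and larger ones may not pass either. The size of departure that would pass was not tested. Over all tested genes, 107 (1.17%) passed, with 1337 at an unadjusted p under 0.05. This count ranged from 36 without CK replicate 3 to 332 without SA replicate 2. It stayed at 50 or fewer without any 1 CK or P2R library, and was 171 without SA replicate 1.

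**Figure D5:**
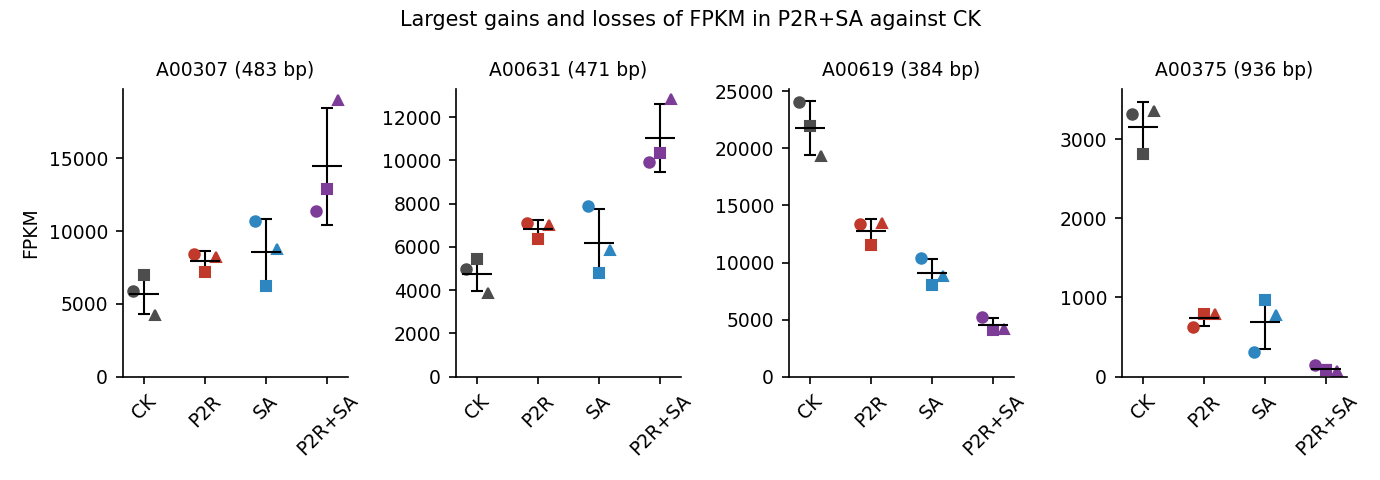
FPKM (y axis, from 0) of the 4 genes named by ID in the 12 libraries by group (x axis), with a point per library, a bar for the group mean and whiskers for the SD (n = 3). A00619 and A00375 have their lowest means in P2R+SA (4502 and 102 FPKM), A00307 and A00631 their highest (14447 and 11034 FPKM), with the single-compound means of these 4 genes between CK and P2R+SA.

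Over all genes called in P2R+SA against CK, the median differences with single compounds were smaller. For the 1407 higher genes the median was 0.77 log2 units with both compounds, 0.45 with the dye and 0.46 with sinapic acid. For the 2274 lower genes it was -0.68, -0.38 and -0.38. For the 444 genes higher by at least 1 log2 unit it was 1.36, 1.0 and 0.88, and for the 580 lower by as much it was -1.45, -0.68 and -0.98. The genes were chosen for their change with both compounds, which favours the first value of each set, and the medians over all tested genes were -0.12, -0.09 and -0.04. By library, the gap rested mainly on P2R+SA replicates 2 and 3. For the 2274 lower genes, P2R+SA replicate 1 lay at -0.41, within the -0.33 to -0.46 of the P2R and SA libraries. For the 1407 higher genes it lay at 0.60, against 0.31 to 0.56 in those libraries.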

How the data were processed

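Mycelial mRNA was sequenced in 12 libraries, grouped by sample title into CK, P2R, SA and P2R+SA. The FPKM values were made by the authors before they were deposited. Per the submitters' processing notes, HISAT2, HTSeq, fastp and R 3.2.0 were used, in roles not stated. The sources used here do not state the build, annotation, strandedness or filtering. Per the labels' protocols, TRIzol served for extraction and a VAHTS kit for library construction. A series-wide table, used here, and 12 single-library files agree to within 4.89e-06 FPKM.

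Whole fragments were recovered from the single-library FPKM values for 10272 of 10276 genes (tolerance 1e-06). The lengths were multiples of 3 in 100.0% of the genes with over 50 fragments, and were taken as coding lengths. Where a first step gave no whole length, only multiples of 3 were tried, so this share is partly set by the method. The recovered fragments and lengths served for depth, length, fragment shares, simulated data and a limma-voom alternative.

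The fit used limma 3.58.1 in R 4.3.3 on log2(FPKM + 1), with all 12 libraries (8 residual degrees of freedom, intensity trend, no block), with genes at 1 FPKM or more in 3 of the 6 compared libraries. Calls are two-sided at a Benjamini-Hochberg adjusted p under 0.05. In simulated data for this comparison, 50 of 9113 genes were changed at each size. Of changes of 0.5, 1, 2 and 3 log2 units, 14.0%, 70.0%, 94.0% and 100.0% were recovered, with 10 false among 149 calls. Whether these rates hold for the deposited data, where 40.4% of tested genes were called, was not tested. Shares were compared with exact permutation tests in scipy 1.17.1. The IDs named are the 2 largest gains and the 2 largest losses of mean FPKM among called genes whose groups do not overlap. The genes and lists were chosen with earlier results of these data known. Alternatives comprised 23 settings (pseudocount, filters, scaling, libraries fitted, block, weights, voom, each library left out and, added after seeing the data, no intensity trend).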

Additional observations from a re-analysis of the deposited data

How the results depend on the processing

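The 4 genes named by ID kept their direction and their call in P2R+SA against CK under all 23 alternatives. They were chosen among called genes, and the alternatives refit the same data, so this is no separate evidence. Changed genes numbered 3681, and 2396 to 4734 with 1 library left out (1432 to 3090 lower, 964 to 1644 higher). The lowest counts came without P2R+SA replicate 3 (2396; 1432 lower) and replicate 2 (2422; 1453 lower). With array quality weights 6606 genes changed, 2393 higher and 4213 lower. Changes of at least 1 log2 unit numbered 1024, 665 with a pseudocount of 5, and 855 to 1402 with 1 library left out. The interaction passed for 107 genes, 63 with the replicate block, 495 with array quality weights and 36 to 332 with 1 library left out. Its lower counts, 36 to 50, came without any 1 CK or P2R library, and the higher ones without SA replicate 1 (171) or 2 (332). The share of the 10 most abundant genes was 1.77 percentage points higher in P2R+SA, 0.899 when counted in fragments and 1.32 to 2.07 with 1 library left out. For the genes that are the P2R+SA top 10 the difference was 5.32 points, 2.17 in fragments (whose top 10 holds other genes) and 4.81 to 5.59 with 1 library left out. For the CK top 10 it was -0.419, and -0.734 to -0.0456 with 1 library left out. The cause of these changes was not tested. A gene at 1 FPKM with the median coding length of 1353 bp rests on 49 to 53 fragments per library, so counting error limits the genes near that level.

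Replicate numbers did not pair the CK and P2R+SA libraries. Deviations from the group means correlated at -0.15, -0.17 and 0.01 between same-numbered libraries, and 0 of the 6 correlated best with its own number. Between P2R and P2R+SA, same-numbered libraries correlated at 0.40, 0.55 and -0.29, and those with different numbers at -0.58 to 0.40. With the number as a replicate block, 3494 genes changed.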

Other observations

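The share of genes called varied with coding length. Of the 985 tested genes of 3000 bp or more, 9.34% were higher and 27.2% lower in P2R+SA, against 15.4% and 24.9% of all tested genes. Of the 2122 genes of 500 to 1000 bp, 17.3% were higher and 27.2% lower, and of the 705 under 500 bp 15.3% were higher and 22.6% lower. From 500 bp up, the share called higher fell with each longer class. It was 17.3% at 500 to 1000 bp, 17.2% at 1000 to 1500, 15.4% at 1500 to 2000, 14.1% at 2000 to 3000 and 9.34% above. The class under 500 bp broke this order, and the share called lower followed no steady order with length. The median coding length was 1135 bp in genes higher by at least 1 log2 unit, 1231 bp in those lower by as much and 1353 bp in all tested genes. The difference between length classes was not tested.

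The log2 fold changes were also set side by side for genes whose IDs carry consecutive numbers. What the order of the IDs stands for is not given in the sources used here. Over 8118 pairs of tested genes with consecutive numbers the log2 fold changes had a Pearson r of 0.11 (Spearman rho 0.10), over 7978 pairs 2 numbers apart a Pearson r of 0.05, and over pairs 5 to 1000 numbers apart a Pearson r of 0.00 to 0.02. All pairs share the same 6 libraries and most genes occur in more than 1 pair, so these are descriptions. Of the consecutive pairs 7.49% were both called lower and 2.99% both higher, against 6.58% and 2.67% of pairs 2 apart, and 6.08% to 6.28% and 2.37% to 2.56% of pairs 5 to 1000 apart. Pairs in which both genes rose by at least 1 log2 unit numbered 30 at either of the closest spacings, and 13 to 22 at 5 to 1000 apart. Pairs that both fell as much numbered 65 for consecutive numbers, 40 for numbers 2 apart and 24 to 48 at 5 to 1000 apart. The wider spacings held fewer pairs, 6876 to 7745.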
